A study of Mus musculus with 21 samples.

Results

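Transcripts of 9 genes of NAD metabolism and the sirtuin family were followed in mouse fat across the day: Nampt, Nmnat1, Nmnat3, Nnmt, Nadk, Cd38, Sirt1, Sirt2 and Sirt3. They were taken by symbol from a table of 38087 genes, and all 9 were among the 18334 genes with enough counts to be tested. The tissue was epididymal white fat of male C57BL/6j mice aged 15 to 16 weeks, fed ad libitum. One arm was conventionally raised, with a gut microbiota (12 libraries, 2 at each of 6 zeitgeber times), and the other was germ-free, raised without microbes (9 libraries). Zeitgeber time (ZT) counts hours after lights on, and the times were ZT 2, 6, 10, 14, 18 and 22. Germ-free libraries were in pairs at ZT06, ZT10 and ZT22, while ZT02, ZT14 and ZT18 had 1 each and so no replicate. The labels do not say if every library is a different mouse, and p-values measure the spread between libraries, which may be technical.

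NAD is an electron carrier and also a substrate that is used up by signalling enzymes, so cells keep remaking it from the nicotinamide those enzymes release. NAMPT joins nicotinamide to a ribose phosphate in the rate-limiting step of this salvage, and NMNAT enzymes complete the molecule, NMNAT1 in the nucleus and NMNAT3 in mitochondria. NADK phosphorylates NAD to NADP, the carrier that supplies lipid synthesis, and NNMT methylates nicotinamide so that it leaves the cycle. CD38 breaks NAD down and is best known from immune cells. Sirtuins consume NAD to remove acyl groups from proteins: SIRT1 mainly in the nucleus, SIRT2 in the cytosol and SIRT3 in mitochondria. Nampt is known as a target of the circadian clock, whose activators bind E-box sequences.

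Library totals ranged from 24388294 to 48348181 counts. All 7 adipocyte markers were abundant in every library, the least being Pparg at 144 CPM, where CPM is a gene's count relative to the library size after TMM scaling, edgeR's correction for composition. Their sums had medians of 23757 (conventional) and 25104 CPM (germ-free). Summed markers of macrophages had medians of 1095 (conventional) and 886 CPM (germ-free), and those of B cells 9.66 and 8.42 CPM. Transcripts of ciliated ducts ranged from 7.90 to 445 CPM and exceeded 5 times their median of 20.6 CPM in 5 libraries, 3 conventional and 2 germ-free. The second conventional library at ZT10 held 1699 CPM of male accessory gland markers, whose medians were 0.406 CPM in conventional and 0.217 CPM in the other arm. Over 15 library measures, 2 differed between the arms by exact permutation within times. Skeletal muscle markers, 5 genes of which Acta1 made up most of the sum, had a conventional median of 13.9 CPM and a germ-free median of 6.66 CPM (adjusted p = 0.0347). The other was the rank correlation, across genes, of a library's deviations with exon length (medians 0.121 and -0.0745, adjusted p = 0.0334). In bulk tissue, fewer cells of a type and less RNA per cell cannot be told apart.

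All 9 genes are protein coding, and they lay far apart in level. Per kilobase of the deposited exon length, mean levels over all 21 libraries were 88.1 CPM for Nnmt and 83.0 CPM for Nadk, above 96.9% and 96.6% of the tested genes. Nampt followed at 27.2 CPM per kilobase, then Sirt2 at 13.9, Sirt3 at 7.16, Cd38 at 5.98 and Sirt1 at 5.56. The NMN adenylyltransferase genes Nmnat3 (3.17) and Nmnat1 (2.69) were lowest. Nnmt and Nadk overlapped in their ranges over conventional libraries, from 80.4 to 108 CPM per kilobase for Nnmt and from 66.6 to 92.6 for Nadk. Sirt3, Cd38 and Sirt1 overlapped with each other as well, and so did both Nmnat genes. The order rests in part on the length used: with all exons of the M21 annotation, Sirt3 (5973 bases in place of 1760) moved to the last place at 2.11 CPM per kilobase, and Nampt (5054 bases in place of 9550) stood at 51.4, still in the third place.

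Promoter windows of 300 bases, from 250 before to 50 after an annotated start, came from RefSeq on GRCm38.p6 for 8 of the 9 genes, 11 windows in all. The canonical E-box, CACGTG, which reads the same on both strands, was found in 2 of the 11, against 7.15% of 32851 mouse windows of this length. Sirt1 held 2 E-boxes, beginning at -115 and -43 bases from its start, and the downstream window of Nadk held 1, at -40. The D-box TTANGTAA, the motif TAGGTCA at the core of ROR elements and TCAAGGTCA, bound by estrogen-related receptors, were in none of the 11, searched on both strands, against 2.32%, 2.61% and 0.423% of all windows. The 3 windows below are shown because they belong to the gene with the clearest daily course, Nampt, and to those with an E-box, which is in capitals. They lie at chr12:32820085-32820384 on the plus strand, chr4:155563565-155563864 on the plus strand and chr10:63338986-63339285 on the minus strand, each written 5′ to 3′.
Nampt: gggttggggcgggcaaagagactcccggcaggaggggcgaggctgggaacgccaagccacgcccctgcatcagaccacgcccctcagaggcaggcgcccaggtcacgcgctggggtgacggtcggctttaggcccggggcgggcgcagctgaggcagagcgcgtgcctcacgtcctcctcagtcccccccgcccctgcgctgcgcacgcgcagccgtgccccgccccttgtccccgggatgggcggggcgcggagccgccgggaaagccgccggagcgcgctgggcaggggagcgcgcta
Nadk: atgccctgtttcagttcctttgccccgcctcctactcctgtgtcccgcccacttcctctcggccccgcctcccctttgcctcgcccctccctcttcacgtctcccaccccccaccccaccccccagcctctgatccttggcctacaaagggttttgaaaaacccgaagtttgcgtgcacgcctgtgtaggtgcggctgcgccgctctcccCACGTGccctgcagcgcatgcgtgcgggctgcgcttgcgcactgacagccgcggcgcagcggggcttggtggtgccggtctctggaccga
Sirt1: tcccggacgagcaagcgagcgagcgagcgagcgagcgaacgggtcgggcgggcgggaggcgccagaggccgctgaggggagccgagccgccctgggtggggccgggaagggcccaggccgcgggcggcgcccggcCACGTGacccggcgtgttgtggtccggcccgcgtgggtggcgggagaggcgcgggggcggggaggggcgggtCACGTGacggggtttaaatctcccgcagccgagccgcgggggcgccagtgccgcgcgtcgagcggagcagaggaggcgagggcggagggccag
A match describes letters in this window only, and its absence from the Nampt window says nothing about the rest of the gene.

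Nampt (chr12:32819545-32853349, plus strand, in the M21 annotation of GRCm38), the gene of the rate-limiting salvage enzyme, rose and fell in germ-free fat. Over the day its highest values there were at ZT14 and ZT18. It stood at 170.4 CPM in the germ-free library at ZT02, at 191 and 210.2 CPM at ZT06, and at 265 and 232 CPM at ZT10. At ZT14 it reached 488 CPM and at ZT18 388 CPM, and at ZT22 it was back at 243 and 267 CPM. The libraries at ZT14 and ZT18 lay above all 19 others of both arms. In conventional fat Nampt moved within a narrower range: 271 and 199 CPM at ZT02, 229 and 216 CPM at ZT06, 195 and 242 CPM at ZT10, 274 and 309.6 CPM at ZT14, 314 and 272 CPM at ZT18, and 244 and 231 CPM at ZT22. The conventional arm, too, had its 4 highest libraries at ZT14 and ZT18, and its range lay within that of the germ-free arm.

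**Figure D1:**
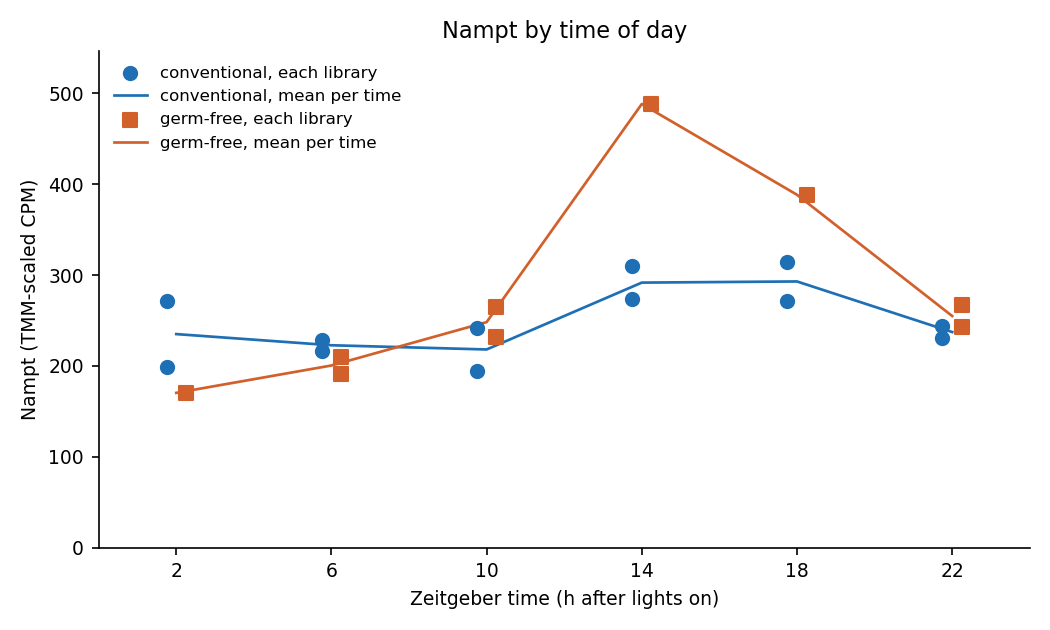
Nampt in TMM-scaled CPM against zeitgeber time in hours. Circles are the 12 conventional and squares the 9 germ-free libraries, and lines join the mean at each time; the germ-free libraries at ZT14 and ZT18, at 488 and 388 CPM, stand above all others.

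A cosine of 24 h was fitted to each arm, and an amplitude is how far the curve rises above its middle, in log2 units. In germ-free fat the amplitude of Nampt was 0.68 ± 0.09 (SE), a 2.58-fold difference from trough to peak, with the peak at ZT 15.7 ± 0.42 h (edgeR adjusted p = 8.94e-04). It was the only one of the 9 to pass in that arm, where 4.52% of all tested genes did. In conventional fat the amplitude was 0.21 ± 0.07, or 1.34-fold, with the fitted peak at ZT 17.0 ± 1.27 h, and it did not pass (edgeR adjusted p = 0.271). There 0.796% of genes passed and 0 of the 9. The difference between the rhythms had an unadjusted p of 0.00141 and an adjusted p of 0.574 for Nampt. By edgeR 0 of 18334 genes passed for that difference, and 1392 (7.59%) had an unadjusted p under 0.05. DESeq2 called 48 genes for that difference, Nampt among them (adjusted p = 0.0436). Without both germ-free libraries at ZT14 and ZT18 the germ-free amplitude was 0.47 and did not pass (adjusted p = 0.189). The library at ZT14 also held 331 CPM of the liver transcript Alb, against a median of 55.7 CPM over all libraries. The library with the most Alb, conventional ZT02 replicate 2 at 425 CPM, had Nampt at 199 CPM, but it differs in arm and time. A link between Alb and Nampt was not tested. Leaving out the germ-free ZT14 library alone, the germ-free rhythm of Nampt still passed, at the highest adjusted p of any single omission, 0.0104.

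For reference, the clock repressor gene Per2 peaked at ZT 13.5 ± 0.62 h in germ-free and ZT 14.9 ± 0.60 h in conventional fat. Its log2 amplitudes were 1.35 ± 0.25 and 1.27 ± 0.20. The clock output gene Dbp peaked at ZT 9.70 ± 0.37 h and ZT 10.2 ± 0.39 h, and the repressor gene Nr1d1 at ZT 7.36 ± 0.49 h and ZT 6.74 ± 0.61 h, in the same order of arms. The activator gene Arntl peaked at ZT 22.3 ± 0.42 h in germ-free fat. Log2 amplitudes of Arntl were 2.54 ± 0.26 in germ-free and 1.58 ± 0.24 in conventional fat. They were 2.33 ± 0.21 and 1.70 ± 0.18 for Dbp, and 2.26 ± 0.30 and 1.44 ± 0.25 for Nr1d1. All 4 reference genes passed in both arms (adjusted p from 4.98e-05 to 0.0244). By edgeR none of the 4 passed for the difference between the rhythms (adjusted p from 0.617 to 0.767). Nampt had its germ-free peak after that of Per2 and before that of Arntl, and its amplitude there was smaller than any of theirs. Of the 19 clock genes listed, 14 were rhythmic in conventional and 15 in germ-free fat.

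**Figure D2:**
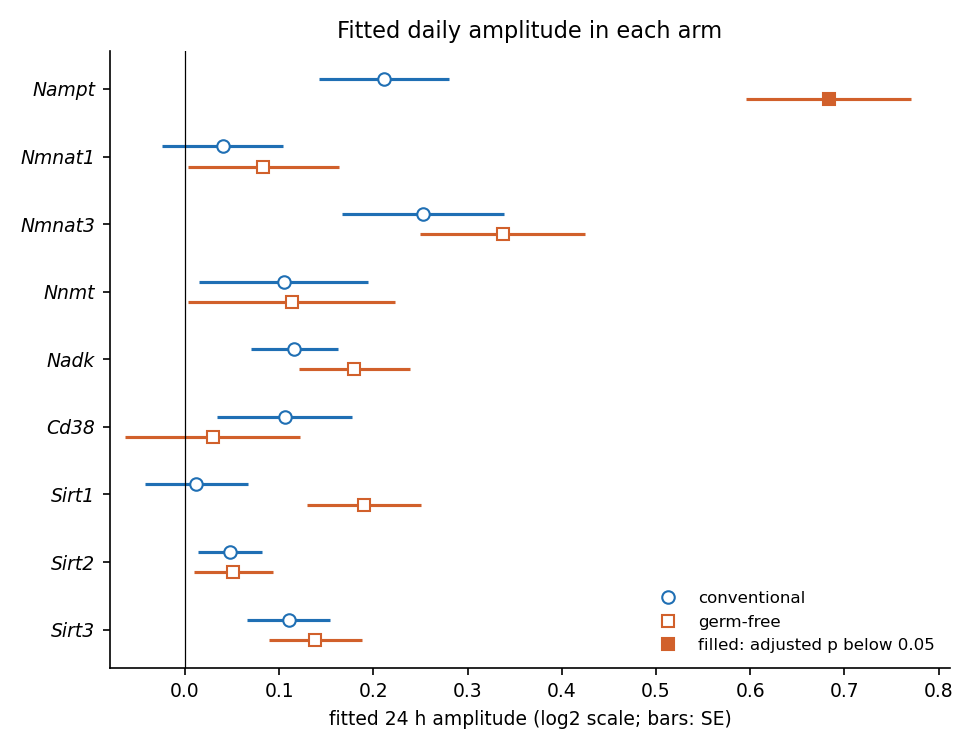
Fitted 24 h amplitude on the log2 scale, with its SE as bars, for each gene in conventional (circles) and germ-free fat (squares); a filled symbol marks an adjusted p below 0.05. Nampt in germ-free fat, at 0.68, is the only filled symbol.

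Nmnat3 (chr9:98287435-98420438, plus strand) encodes the mitochondrial NAD-making enzyme. Its germ-free libraries stood at 13.7 CPM at ZT02, 17.0 and 22.1 at ZT06, 27.5 and 22.6 at ZT10, 16.2 at ZT14, 12.9 at ZT18, and 14.7 and 17.6 at ZT22. Conventional libraries stood at 14.3 and 13.7, 17.0 and 17.3, 18.8 and 14.5, 13.6 and 13.1, 11.1 and 10.6, and 14.7 and 15.2 CPM at the same 6 times. In each arm the lowest library was one at ZT18 and the highest one at ZT10. Amplitudes were 0.34 ± 0.09 in germ-free (peak ZT 9.13 ± 1.24 h, adjusted p = 0.0706) and 0.25 ± 0.09 in conventional fat (peak ZT 6.31 ± 1.29 h, adjusted p = 0.30), so neither arm passed on its own. In germ-free fat it did pass with a test for any change over the 6 times (adjusted p = 0.0485) and with DESeq2 (adjusted p = 0.0176), and also when the ZT06 replicate 1 or ZT22 replicate 2 library was left out (lowest adjusted p 0.0285).

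With 1 cosine shared by both arms, a test chosen after seeing the data, 3 of the 9 genes passed, against 7.32% of all tested genes. They were Nampt (amplitude 0.39, peak ZT 16.1 h, adjusted p = 0.00812), Nmnat3 (0.28, ZT 7.62 h, adjusted p = 0.0254) and Nadk (0.14, ZT 16.3 h, adjusted p = 0.0443). Nampt kept this call whichever single library was left out (adjusted p up to 0.0176). None of the 3 kept it without both germ-free libraries at ZT14 and ZT18, or with only libraries numbered 2. Nadk lost it without any library (adjusted p up to 0.0957) other than conventional ZT06 (either), replicate 2 at conventional ZT10, ZT18 or ZT22, germ-free ZT02, or germ-free ZT22 replicate 1. Nadk also lost it under upper quartile scaling, with no filter on low counts, with the replicate block and with either length offset, while Sirt3 gained it in DESeq2. Nmnat3 lost it without the conventional ones at ZT10, replicate 1, or ZT18, replicate 2, or the germ-free one at ZT18 (adjusted p up to 0.0553). Sirt3 had an amplitude of 0.12 with a peak at ZT 20.1 h (adjusted p = 0.0573), and passed without the conventional ZT06, replicate 1, the conventional ZT18, replicate 1, or the germ-free ZT02 library (lowest adjusted p 0.0225). For Nmnat1, Nnmt, Cd38, Sirt1 and Sirt2 the shared amplitude was between 0.03 and 0.09 and the adjusted p between 0.354 and 0.943. Germ-free Sirt1 alone had an amplitude of 0.19 ± 0.06 with a peak at ZT 11.2 ± 1.34 h (adjusted p = 0.141), and 0.01 ± 0.05 in conventional fat. With the 5 libraries high in ciliated duct transcripts left out, and in DESeq2, germ-free Sirt1 passed (adjusted p = 0.0408 and 0.0499).

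**Figure D3:**
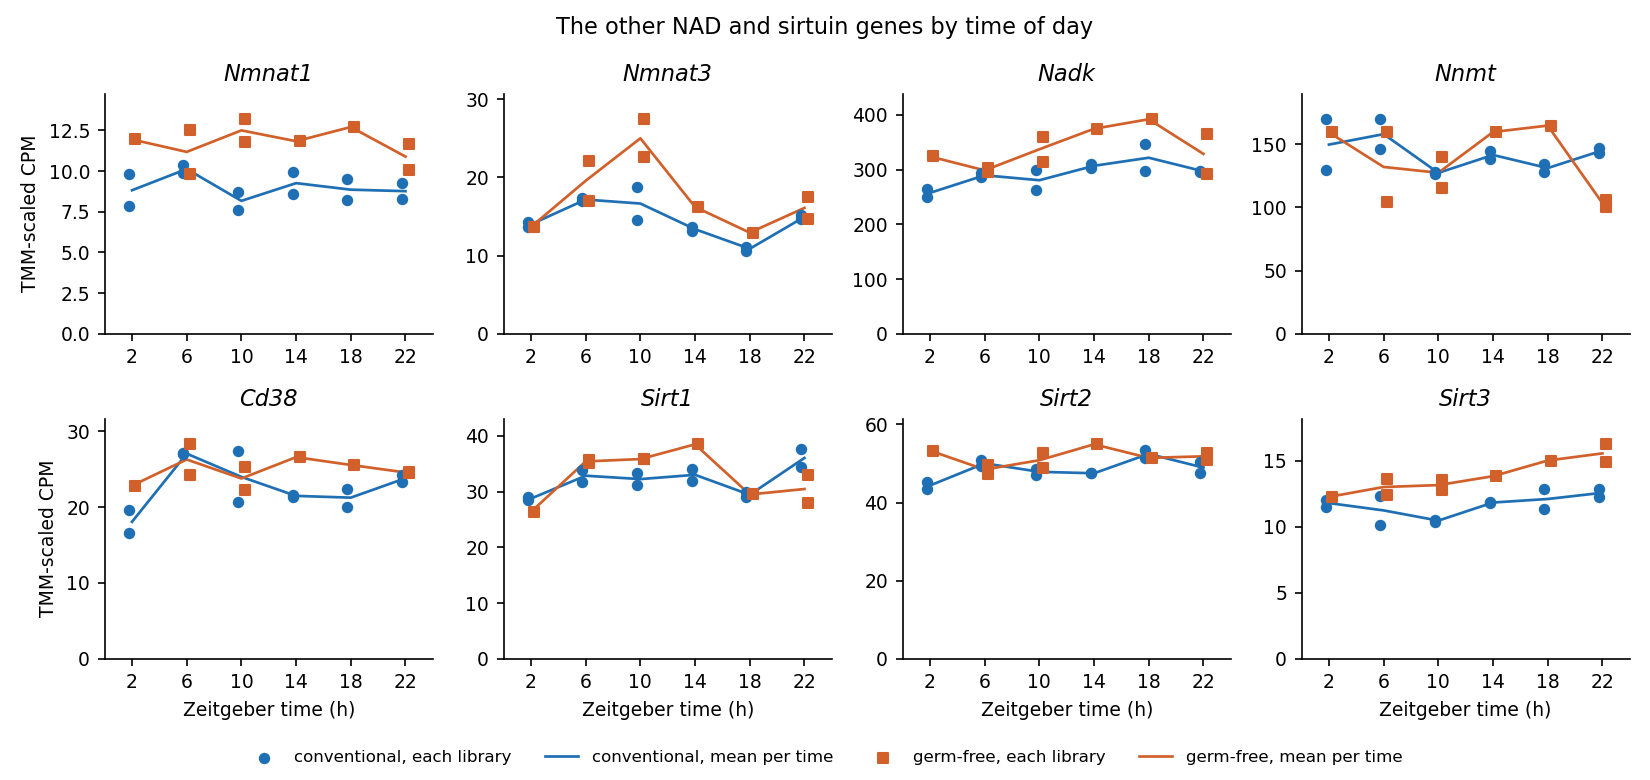
The other 8 genes in TMM-scaled CPM against zeitgeber time in hours, 1 panel each with its own axis from 0. Circles are conventional and squares germ-free libraries, with lines through the mean per time. Nmnat1, Nadk and Sirt3 have germ-free means above the conventional ones at all 6 times.

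Comparing the arms, 4 of the 9 genes were higher in germ-free fat and 0 were lower, by edgeR's test with time of day as a covariate. Over all tested genes 26.8% passed, 15.2% higher and 11.5% lower. The median log2 fold change was 0.13 over the 9 genes and 0.03 over all tested genes. In each of the 9 the ranges of the arms overlapped, while for 0.665% of all tested genes they did not.

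Nmnat1 (chr4:149467572-149485202, minus strand), which makes NAD in the nucleus, had the largest fold change of the 9. Its conventional libraries ranged from 7.63 to 10.4 CPM with a median of 8.99, and its germ-free ones from 9.80 to 13.2 CPM with a median of 11.8. All 9 germ-free libraries lay above the conventional median, 7 lay above every conventional library, and the germ-free mean was higher at all 6 times. The means were 9.0 ± 0.91 (SD, n = 12) and 11.7 ± 1.13 CPM (SD, n = 9), a log2 fold change of 0.39 ± 0.07 (SE, edgeR adjusted p = 0.00123).

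Sirt3 (chr7:140863666-140882309, minus strand), the main mitochondrial deacetylase, was also higher. Conventional libraries ranged from 10.1 to 12.9 CPM with a median of 11.8, and germ-free ones from 12.3 to 16.2 CPM with a median of 13.6. The germ-free mean was higher at all 6 times, and 6 of 9 germ-free libraries lay above every conventional one. The log2 fold change was 0.25 ± 0.05 (adjusted p = 0.00164). In the M21 annotation, exons of Sirt3 share 418 bases with Ric8a and 342 with Psmd13 on the opposite strand. The deposited exon length of Sirt3 is shorter (1760 in place of 5973 bases), so the shared bases may lie outside the counted exons. Whether the counting used strand is not given in the sources used here. Of these neighbours, Psmd13 was also higher (0.20, adjusted p = 0.00722) and Ric8a did not pass (0.06, adjusted p = 0.375).

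Nadk (chr4:155562378-155591001, plus strand) is the kinase that makes NADP. It ranged from 249.6 to 347 CPM with a median of 296 in conventional libraries, and from 292 to 392 CPM with a median of 324 in germ-free ones. The lowest germ-free libraries, at ZT06 and ZT22, lay within the conventional range, and 4 of 9 lay above all of it. The germ-free mean of Nadk was higher at all 6 times, and its log2 fold change was 0.21 ± 0.05 (adjusted p = 0.00663). Nmnat3 ranged from 10.6 to 18.8 CPM (median 14.4) in conventional and from 12.9 to 27.5 CPM (median 17.0) in germ-free libraries, with the widest gap at ZT10 and nearly the same level at ZT02. The log2 fold change was 0.24 ± 0.08 (adjusted p = 0.0240). It no longer passed once any of 5 germ-free libraries was left out, namely ZT10 replicate 1 or replicate 2 at ZT06, ZT14, ZT18 or ZT22 (highest adjusted p 0.0701).

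In 3 smaller sets of libraries fewer of the 4 passed, each with the same direction, while all 4 passed without the 5 libraries high in ciliated duct transcripts. At ZT06, ZT10 and ZT22 alone, where both arms had 2 libraries, Sirt3 passed and Nmnat1 (0.34, adjusted p = 0.0588), Nmnat3 (0.28, adjusted p = 0.134) and Nadk (0.14, adjusted p = 0.253) did not. With only libraries numbered 2, Nmnat1 passed and Nmnat3, Nadk and Sirt3 did not (adjusted p = 0.0773, 0.0539 and 0.0929). Without both germ-free libraries at ZT14 and ZT18, Nmnat1 and Sirt3 passed, and Nmnat3 and Nadk did not (adjusted p = 0.138 and 0.103). With an offset that removed each library's trend with exon length, all 4 passed.

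**Figure D4:**
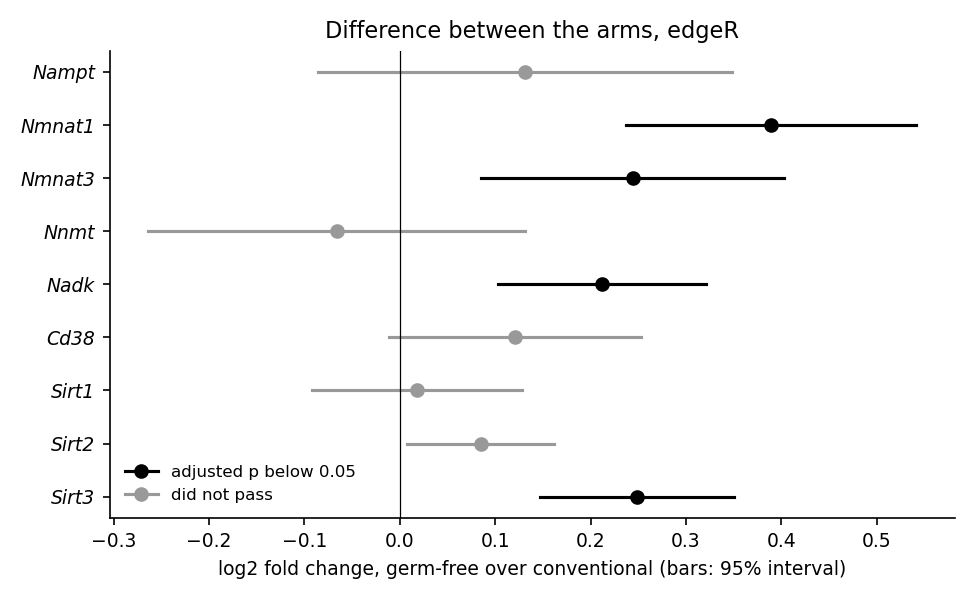
Log2 fold change of germ-free over conventional fat for the 9 genes, with 95% intervals from edgeR as bars. Black marks an adjusted p below 0.05, met by Nmnat1 (0.39), Sirt3 (0.25), Nmnat3 (0.24) and Nadk (0.21).

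The other 5 genes did not pass between the arms. Nampt averaged 249.7 ± 39.1 CPM (SD, n = 12) with microbes and 273 ± 102 CPM (SD, n = 9) without, a log2 fold change of 0.13 with a 95% interval from -0.09 to 0.35 (adjusted p = 0.378). Its germ-free mean was higher at 4 of 6 times. Over 11 other settings that value ran from -0.06, without both germ-free libraries at ZT14 and ZT18, to 0.25, with the exon length offset and the replicate block, and it passed in none. Nnmt (chr9:48591877-48605153, minus strand), the nicotinamide methyltransferase, ranged from 127 to 169.8 CPM in the conventional arm and from 101 to 165 CPM in the germ-free arm (log2 fold change -0.07, interval -0.26 to 0.13, adjusted p = 0.660). Over the same settings Nnmt ran from -0.27, at ZT06, ZT10 and ZT22 alone, to -0.02, without the libraries high in ciliated duct transcripts, and passed in none. Its 3 lowest libraries of all were germ-free, replicate 2 at ZT06 and both at ZT22. Cd38 (chr5:43868553-43912375, plus strand), the NAD hydrolase, ranged from 16.5 to 27.3 CPM with microbes and from 22.2 to 28.3 CPM without (0.12, interval -0.01 to 0.25, adjusted p = 0.169). Cd38 passed only when the conventional library at ZT10, replicate 2, was left out (adjusted p = 0.0463), which held the accessory gland transcripts and had the highest conventional value. Summed macrophage markers ranged from 861 to 1303 CPM in conventional libraries and from 811 to 1443 CPM in the others, and B cell markers from 1.96 to 25.8 and from 3.78 to 16.9 CPM (adjusted exact permutation p = 0.171 and 0.985). Of the 7 macrophage genes 1 passed, Itgam (-0.43, adjusted p = 0.0193), and of the 5 B cell genes 0, and their part in Cd38 was not tested.

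Sirt1 and Sirt2 encode the mainly nuclear and mainly cytosolic sirtuins. Sirt1 (chr10:63319005-63381704, minus strand) ranged from 28.5 to 37.7 CPM with microbes and from 26.4 to 38.5 CPM without, with a log2 fold change of 0.02 (95% interval -0.09 to 0.13, adjusted p = 0.850). Sirt2 (chr7:28766735-28788661, plus strand) ranged from 43.6 to 53.5 CPM and from 47.4 to 54.9 CPM, with a log2 fold change of 0.08 (0.01 to 0.16, adjusted p = 0.0974).

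Across a wider list of 60 genes of NAD metabolism, the 9 included, 57 were tested. Germ-free fat had 13 of them higher and 6 lower, with a median log2 fold change of 0.06, where 15.2% of all tested genes were higher and 11.5% lower with a median of 0.03. Among 8 tested genes of the de novo route from tryptophan, with its kynurenine branch, only Nadsyn1, the glutamine-dependent NAD synthetase that ends it, passed (log2 fold change 0.25 ± 0.08, adjusted p = 0.0246). Tdo2, the first enzyme of that route, had -0.64 ± 0.29 (adjusted p = 0.109) and Kmo 0.03 ± 0.17 (adjusted p = 0.931). Of 10 tested salvage and uptake genes, 3 were higher: both Nmnat genes above and Slc25a51, the mitochondrial NAD carrier, at 145 ± 16.0 and 163 ± 27.2 CPM (0.19 ± 0.07, adjusted p = 0.0478). Nmnat2, the third family member, was the 1 that was lower, with means of 2.94 ± 1.11 (conventional) and 2.04 ± 0.42 CPM (-0.46 ± 0.15, adjusted p = 0.0328). Nmnat2 was also rhythmic in conventional fat (amplitude 0.65, peak ZT 13.8 h, adjusted p = 0.0372), and in germ-free fat had an amplitude of 0.26 (adjusted p = 0.535); the difference had an adjusted p of 0.704. Pnp and Nt5e, which handle nucleosides and nucleotides, had -0.18 ± 0.08 (adjusted p = 0.0930) and -0.16 ± 0.27 (adjusted p = 0.728).

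Of 10 genes that supply NADP or NADPH, 5 were higher and 0 lower, with a median log2 fold change of 0.20, beside 15.2% and 11.5% of all tested genes. Malic enzyme Me1 had the largest change of these, from 442 ± 300.4 to 1079 ± 734 CPM (1.3 ± 0.38, adjusted p = 0.0191). Smaller increases were found for the isocitrate dehydrogenase gene Idh1 (0.30 ± 0.09, adjusted p = 0.0186), for Me2 (0.23 ± 0.07, adjusted p = 0.0164), and for Nadk and its mitochondrial relative Nadk2. The pentose phosphate genes Pgd (0.47 ± 0.19, adjusted p = 0.0809) and G6pdx (0.13 ± 0.09, adjusted p = 0.326) did not pass. None of the 4 genes of nicotinamide methylation and clearance passed between the arms by edgeR, and 0 had an unadjusted p under 0.05 in that comparison. Besides Nnmt they include Mat2a, which makes the methyl donor (0.10 ± 0.05, adjusted p = 0.159), and the oxidase gene Aox1 (-0.16 ± 0.08, adjusted p = 0.168).

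Of 18 NAD consumers other than sirtuins, 2 were higher and 5 lower, with a median log2 fold change of -0.03, again beside 15.2% and 11.5% of all tested genes. Parp1, the main DNA damage-responsive polymerase, was slightly higher (0.13 ± 0.03, adjusted p = 0.0115), as was Parp10 (0.29 ± 0.07, adjusted p = 0.00729). Parp4, the polymerase of vault particles, fell from 47.3 ± 6.15 to 31.2 ± 13.9 CPM (-0.68 ± 0.13, adjusted p = 0.00186), and the tankyrase gene Tnks had -0.25 ± 0.07 (adjusted p = 0.0112). Tnks2 (0.04 ± 0.04, adjusted p = 0.447) and Tiparp (-0.17 ± 0.09, adjusted p = 0.208) did not pass. In germ-free fat, where 4.52% of all tested genes were rhythmic, 3 of these 18 were: Parp16 (amplitude 0.35, peak ZT 17.9 h, adjusted p = 0.00663), Parp9 (0.34, ZT 7.81 h, adjusted p = 0.00730) and Parp4 (0.52, ZT 10.5 h, adjusted p = 0.0289). Among the 7 sirtuins 2 were higher and 0 lower, beside the same 15.2% and 11.5% of all tested genes. Those 2, Sirt3 and Sirt5 (0.38 ± 0.08, adjusted p = 0.00243), encode mitochondrial enzymes, as does Sirt4, which did not pass (adjusted p = 0.735).

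**Figure D5:**
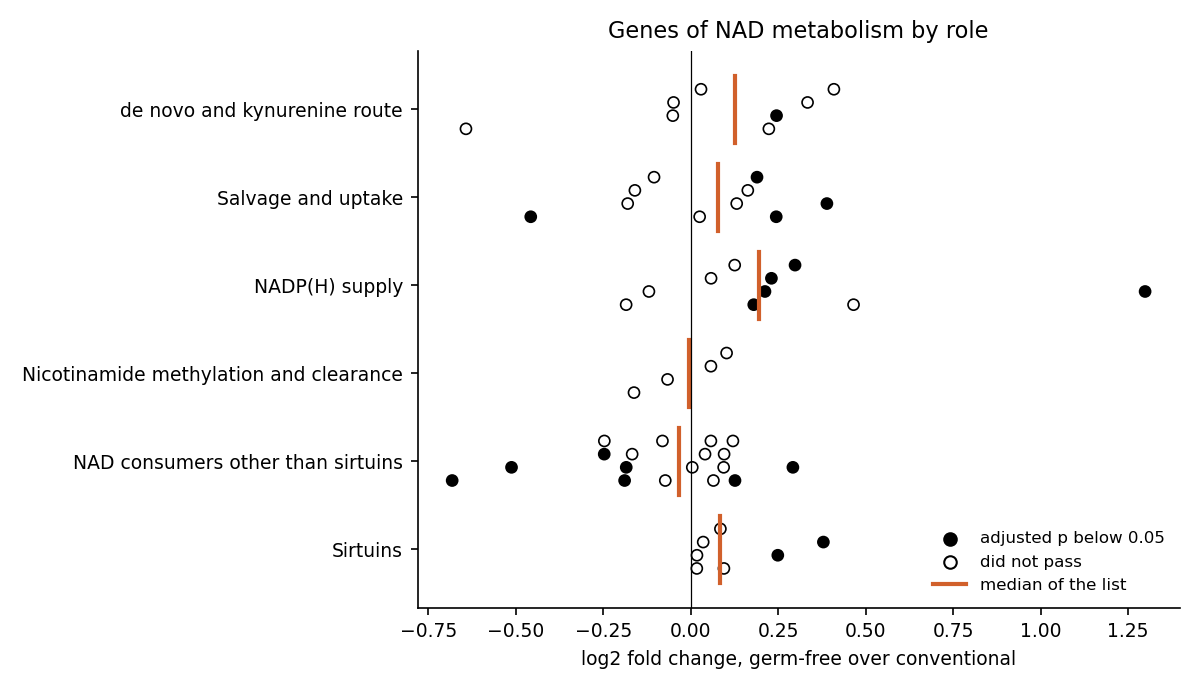
Log2 fold change of germ-free over conventional fat for the 57 tested genes of NAD metabolism, 1 row per role and 1 point per gene. Filled points have an adjusted p below 0.05 and the orange bar is the median of the row; the outlying point at 1.3 is Me1, and sirtuin points reach from 0.02 to 0.38.

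For the 5 genes that passed a test, the genes most alike over the 21 libraries were found by Pearson correlation of log2 CPM among 12566 others, as a description. Nampt was most like Riok2, a kinase of ribosome maturation (r = 0.858), followed by CT572998.1 (0.836) and Ppapdc2 (0.836). CT572998.1, listed as Gdap10 in the M21 annotation, lies within Nampt on the same strand, with 0 exon bases shared there, although the deposited exon length of Nampt is longer than in that annotation. Riok2 had a germ-free peak at ZT 14.9 h and Ppapdc2 at ZT 15.7 h. Nadk followed Ivd, an enzyme of leucine breakdown (r = 0.953), Acaa1a, a peroxisomal thiolase (0.929), and Cdk16 (0.928), and these values were 0.930, 0.890 and 0.906 with the arm means removed. Nmnat3 was most like Elmod2 (0.873), Tbc1d23 (0.852) and Pex3, a peroxisome assembly factor (0.850). For Nmnat1 the nearest were the acetyltransferase gene Kat8 (0.884), Cul2 (0.877) and Clmp (0.867), but with the arm means removed these were 0.700, 0.618 and 0.546. Sirt3 was nearest to Pts (0.871), Zfp637 (0.853) and BC029214 (0.853), or 0.713, 0.759 and 0.704 with the arm means removed. The same step left 0.835, 0.807 and 0.812 for Nmnat3, and 0.862, 0.839 and 0.909 for Nampt. The points of each correlation share library, time and depth.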

How the data were processed

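Total RNA libraries of epididymal fat were made after removal of ribosomal RNA, with a stranded kit, and sequenced as paired ends of 100 cycles, per the labels' protocols. The submitters' processing notes name STAR 2.4.0i and mm10. Neither the counting program nor its strand setting or gene annotation is given in the sources used. The authors deposited raw read counts over exons and an exon length per gene, per the file headers, and the counts were used as deposited. Gene positions, exons and overlaps came from GENCODE M21 on GRCm38.

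The analysis used edgeR 4.0.16 under R 4.3.3. Genes were filtered with filterByExpr and libraries scaled by TMM. Arms were compared by quasi-likelihood F tests in 1 fit of 21 libraries, with the 6 times as a factor. For rhythms the fit had a mean, cosine and sine of 24 h per arm, tested over 2 degrees of freedom. Benjamini-Hochberg adjustment ran over all tested genes, and adjusted p under 0.05 passed. The SE of an amplitude comes from the same fit. Log2 CPM used a prior count of 2. Library measures were compared by exact 2-sided permutation over 5832 relabellings within times, with marker sums as log2 of CPM plus 1. Alternatives used DESeq2 1.42.0, other scalings, filters, offsets and sets of libraries. Tests were checked on simulated counts.

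All 9 members are named. From each list, genes past a test are named, up to 4 per test with the smallest p, and up to 2 others with the highest level. For passing members, the 3 most alike genes whose mean log2 CPM was 1 or more are named. Pseudogenes and models with Gm or Rik names were left out of these. Nadk2, Psmd13, Ric8a, Sirt4, Itgam, Pparg, Alb and Acta1 were named after their values were seen. The members and lists were chosen with earlier results of these data known. Listed genes were matched by symbol or identifier, 4 of them under an older symbol in the table. Python 3.11.15 and matplotlib 3.10.9 drew the plots.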

Additional observations from a re-analysis of the deposited data

How the results depend on the processing

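Between the arms, 4 members passed under upper quartile scaling, no filter, the length offset, DESeq2, a cosine time term, and without libraries high in ciliated duct markers. The count was 1 at ZT06, ZT10 and ZT22 alone (Sirt3; 1688 of all genes in place of 4909), 1 with only libraries numbered 2 (Nmnat1; 957 genes) and 2 without both germ-free libraries at ZT14 and ZT18 (Nmnat1 and Sirt3; 2241 genes). Leaving out each library in turn gave 3 to 5. For the germ-free rhythm the main count of 1 became 3 with DESeq2 (Nampt, Nmnat3 and Sirt1), which called 2044 of all genes in place of 828. It was 2 for any change over the 6 times (522 genes), 2 without libraries high in ciliated duct markers (881 genes), 0 without both germ-free libraries at ZT14 and ZT18 (392 genes) and 1 to 2 with each library left out. In conventional fat it was 0 in every setting run. For the difference of rhythms it was 1 with DESeq2 (Nampt) and 0 in the other settings; with each library left out, the unadjusted p of Nampt lay between 4.20e-04 and 0.0246. The rhythm shared by both arms had 3 members among 1342 genes. Without Nadk it had 2 under upper quartile scaling, no filter, the replicate block and both length offsets, and with Sirt3 it had 4 in DESeq2 (2600 genes). It had 1 without libraries high in ciliated duct markers (728 genes), 0 with only libraries numbered 2 (32 genes), 0 without both germ-free libraries at ZT14 and ZT18 (814 genes), and 1 to 4 with each library left out. The cause of these changes was not tested, other than that smaller sets hold fewer libraries. No called fold change turned its sign; among those not called, Nampt, Cd38 and Sirt1 had a negative value in at least 1 setting.

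Differences between replicate numbers 1 and 2 correlated between groups with a median r of 0.15 over 36 pairs, from -0.59 to 0.60. For the 3 pairs of groups at the same time in both arms the median r was 0.22. These values do not show whether the replicate number pairs the libraries. With a replicate block, 4 members passed between the arms, 0 and 1 in the conventional and germ-free rhythms and 0 for their difference, and 2 shared a rhythm (Nadk lost); all genes called between the arms numbered 4588 in place of 4909. Over all genes the conventional rhythm count moved from 146 to between 0 and 815, and the germ-free one was 545 with no filter and 85 with only libraries numbered 2. At these depths every member had at least 213 counts in each library, and the number of libraries limits the precision.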
